A study of Mus musculus with 15 samples.

Results

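The genes described here build the extracellular matrix of the lens and its capsule: 45 collagen, laminin and other basement membrane genes, taken from a fixed list of names, out of 22359 protein-coding genes. The names were chosen with earlier results of these data known. All 45 were found in the annotation of the mouse mm9 genome. They comprise 9 fibrillar collagens, 7 basement membrane collagens, 5 network and beaded collagens, 6 fibril-associated collagens, 3 transmembrane collagens, 10 laminin chains and 5 linker or matricellular proteins. A gene's window was its body plus 20 kb on each side, and its promoter was the 2 kb to either side of any start of its protein-coding transcripts.

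Chromatin immunoprecipitation sequencing (ChIP-seq) had been carried out on newborn (postnatal day 1) lenses of CD-1 mice, with antibodies to H3K4me2, and on αTN4 cells. αTN4 is a mouse lens epithelial line that carries SV40 T antigen, so all its groups share that transformation. One αTN4 group was infected with lentivirus carrying a control shRNA and the other with lentivirus carrying a Pax6 shRNA (Pax6 KD), and each was kept as a stably infected population after 14 days of puromycin. H3K4me1, H3K4me2 and H3K4me3 were mapped in both, and Pol2 and Pax6 in control cells. There was 1 library for each mark and condition, so no value below has a replicate error and no test between conditions was possible. In tissue and in bulk cultures, fewer cells with a mark and less of the mark per cell cannot be told apart.

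The lens capsule is a thick basement membrane laid down by the lens cells themselves. Its scaffold is a network of type IV collagen and a network of laminin, each laminin being a trimer of an α, a β and a γ chain, and the networks are joined by nidogens and by the heparan sulfate proteoglycans perlecan and agrin. Fibrillar collagens make the fibres of connective tissue, and type II, type IX and type XI collagens form the thin fibrils of cartilage and of the vitreous. H3K4me3 is typical of active starts of transcription and H3K4me1 of enhancers, whereas H3K4me2 is found at both.

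Promoter H3K4me2 separated these genes into those marked in lens and αTN4, those marked in lens only and those marked in αTN4 only. The 100 bases before the 5′-most marked start are shown for the 4 lens-only genes with the strongest promoter peak and for 3 of the 4 αTN4-only genes. Each reads 5′ to 3′ on the strand of the gene in mm9, and the capitals mark CpG dinucleotides.
Col25a1 (chr3:129883709-129883808, + strand): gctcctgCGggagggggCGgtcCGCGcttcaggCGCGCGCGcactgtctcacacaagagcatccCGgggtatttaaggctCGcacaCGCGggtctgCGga
Col13a1 (chr10:61441857-61441956, - strand): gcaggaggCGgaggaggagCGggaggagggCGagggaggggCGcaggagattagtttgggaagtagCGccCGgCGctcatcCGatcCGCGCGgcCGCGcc
Col2a1 (chr15:97835156-97835255, - strand): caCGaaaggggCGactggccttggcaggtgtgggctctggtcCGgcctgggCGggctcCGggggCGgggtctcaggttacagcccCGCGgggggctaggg
Col9a1 (chr1:24201926-24202025, + strand): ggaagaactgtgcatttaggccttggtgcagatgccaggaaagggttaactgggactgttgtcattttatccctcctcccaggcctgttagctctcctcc
Col3a1 (chr1:45368283-45368382, + strand): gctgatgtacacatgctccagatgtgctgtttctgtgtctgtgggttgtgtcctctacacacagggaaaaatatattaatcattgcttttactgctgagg
Lamb3 (chr1:195128051-195128150, + strand): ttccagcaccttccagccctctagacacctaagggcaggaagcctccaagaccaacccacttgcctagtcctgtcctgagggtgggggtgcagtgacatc
Col7a1 (chr9:108855531-108855630, + strand): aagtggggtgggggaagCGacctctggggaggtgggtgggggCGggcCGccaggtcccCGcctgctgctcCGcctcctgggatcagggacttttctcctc
The stretches of Col25a1 and Col13a1 held 13 CpG each and that of Col2a1 held 8. Col7a1 had 5, and Col9a1, Col3a1 and Lamb3 had 0. At Col9a1 the marked start was not the first one but an annotated start 17.6 kb downstream. No sequence is shown for Col6a3, whose marked start lay inside an exon of a longer transcript.

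Of the 45 promoters, 41 carried H3K4me2 in lens (91.1%, 95% Wilson interval 79.3 to 96.5%), against 66.8% of all protein-coding genes. In control αTN4 cells 35 carried H3K4me2 (all genes 58.2%), 26 carried H3K4me1 (all genes 36.0%), 25 carried H3K4me3 (all genes 49.1%) and 25 were occupied by Pol2 (all genes 47.9%). In Pax6 KD cells the counts were 35 for H3K4me2 (all genes 57.1%), 17 for H3K4me1 (all genes 16.7%) and 23 for H3K4me3 (all genes 47.7%). With a promoter of 1 kb to either side, promoter H3K4me1 was at 21 members in control and 10 in KD cells. Intervals here cover counting error only, and not the choice of names. Of 14 further collagen and laminin genes outside the list, 9 carried promoter H3K4me2 in lens and 4 in control cells.

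Promoter H3K4me2 was shared by lens and control αTN4 cells at 31 genes. It was found in lens and not in control cells at 10 genes, which is 22.2% of the set (all genes 11.7%), and in control cells and not in lens at 4 genes, which is 8.89% (all genes 3.13%). No member lacked it in both. By role, promoter H3K4me2 in lens and in control cells was found at 8 and 7 of 9 fibrillar collagens, 6 and 7 of 7 basement membrane collagens, 4 and 4 of 5 network and beaded collagens, 6 and 3 of 6 fibril-associated collagens, 3 and 1 of 3 transmembrane collagens, 9 and 8 of 10 laminin chains, and 5 and 5 of 5 linker and matricellular genes. H3K4me3 was at the promoters of all 5 linker and matricellular genes in control cells, of 7 laminin chains and 5 basement membrane collagens, and of 1 fibril-associated and 0 transmembrane collagens.

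**Figure D1:**
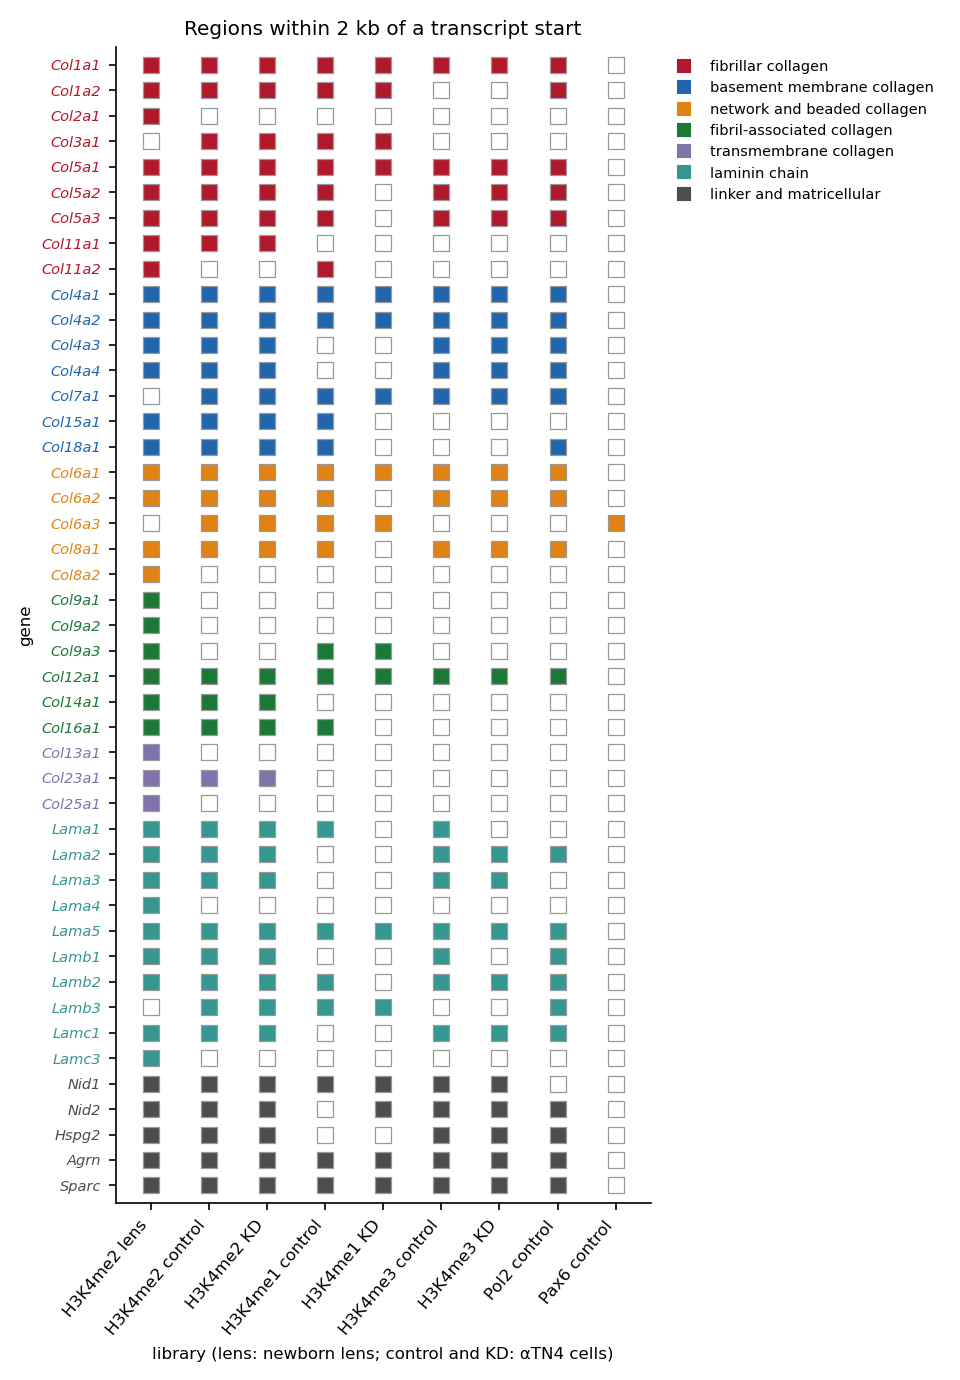
Each row is 1 of the 45 genes, coloured by role, and each column is 1 library (lens: newborn lens; control and KD: αTN4 cells). A filled square is a region within 2 kb of a transcript start: the lens H3K4me2 column is filled for 41 genes, the control H3K4me2 column for 35 and the Pax6 column for 1.

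The lens-only genes included the 3 chains of type IX collagen and 2 of the collagens they assemble with. Col2a1, the chain of type II collagen, had a lens promoter peak of 5124 bp with a fold enrichment of 27.1 over background (percentile 93.4 of all lens peaks). No H3K4me1, H3K4me2, H3K4me3 or Pol2 region lay at its promoter in control cells. Col11a2, a chain of type XI collagen, had a lens peak of 1305 bp (fold 14.0) at its start, where control cells had an H3K4me1 island and no H3K4me2.

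Col9a1, Col9a2 and Col9a3 encode the 3 chains of type IX collagen. Their lens promoter peaks were alike in strength, with folds of 19.5, 18.0 and 17.6 and widths of 3130, 3228 and 3913 bp. Control cells had no promoter H3K4me2 at any of them. At Col9a3 an H3K4me1 island covered the promoter in control and in Pax6 KD cells. The Col9a1 peak covered a start 17.6 kb inside the gene, and no lens peak lay within 2 kb of the first start. Col9a1 has a known downstream promoter that gives a shorter chain in the eye. The whole Col9a1 window held 15 lens peaks covering 11.1 kb, and 0 of them met a control H3K4me2 peak.

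Another 3 lens-only genes encode membrane or network collagens. Col25a1, a transmembrane collagen, had the strongest promoter peak of the lens-only group (fold 32.6, percentile 99.0). Col13a1, a transmembrane collagen of cell adhesion sites, had a peak of fold 22.9. Col8a2, a short-chain collagen of basement membranes such as Descemet's membrane, had 2 lens promoter peaks, the stronger of fold 10.5, beside a start 13.7 kb downstream of the first. At none of these 3 promoters did control cells have H3K4me1, H3K4me2, H3K4me3 or Pol2.

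Lama4, an α chain of laminins of vessels and muscle, had a lens promoter peak of fold 14.5. Lamc3, a γ chain, had the weakest lens promoter peak of the group (fold 4.81, percentile 32.9). Of the 10 lens-only genes, 8 had none of H3K4me1, H3K4me3 and Pol2 at the promoter in control cells (80.0%; 89.6% of all 2622 lens-only genes), and the other 2 (Col11a2 and Col9a3) had H3K4me1.

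The 4 αTN4-only genes were Col3a1, Col6a3, Col7a1 and Lamb3. Col3a1, a fibrillar collagen of soft connective tissue, had 3 control H3K4me2 peaks at the promoter, the strongest of fold 17.5 (percentile 86.6), but neither H3K4me3 nor Pol2. This strongest peak met the only lens peak of the Col3a1 window (321 bp, fold 8.61, percentile 57.9), which lay 2.33 kb from the nearest start and so 0.33 kb outside the promoter. A weak Pol2 peak (fold 4.03, percentile 7.40) lay within the same control H3K4me2 peak. Its summit was 2.40 kb from the first start, so it too fell just outside the promoter. Lamb3, a β chain of the laminin of epithelial anchoring, had a control H3K4me2 peak of 5793 bp (fold 15.2) and a weak Pol2 peak (fold 4.63, percentile 14.0). Col7a1, the collagen of anchoring fibrils, had a control H3K4me2 peak of 3789 bp (fold 18.4), H3K4me3 of fold 4.91 and Pol2 of fold 17.1. Col6a3, a chain of beaded type VI collagen, had a control H3K4me2 peak of fold 5.56 beside a start 41.4 kb inside the gene, and none at the first start. Its lens peak (fold 5.32) lay 3.59 kb from another internal start and met no control H3K4me2 peak. With a promoter of 5 kb to either side, 2 genes in place of 4 were αTN4-only. All 4 kept the promoter H3K4me2 call in Pax6 KD cells, at folds of 20.1 for Col3a1, 14.6 for Lamb3, 18.4 for Col7a1 and 5.25 for Col6a3. In lens, the windows of these genes were not empty: H3K4me2 covered 0.41% of the Col3a1 window, 0.80% of that of Col6a3, 0.99% of that of Lamb3 and 4.37% of that of Col7a1, which also holds the starts of 3 other genes.

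CpG content was measured as the observed over the expected number of CpG in the 1 kb around the first start. The median was 0.525 for the 31 shared genes, 0.542 for the 10 lens-only genes and 0.233 for the 4 αTN4-only genes. Over all genes the medians were 0.733, 0.555 and 0.208, and 0.171 for genes marked in neither. The αTN4-only members ranged from 0.179 (Col3a1) to 0.373 (Col7a1), and the lens-only members from 0.183 (Col9a1) to 0.749 (Col13a1), so these ranges overlapped. Some of the strongest promoter peaks lay beside an internal start, and CpG content there could differ from that at the first start. It was 0.181 for Col9a1, 0.209 for the lens-only Col8a2 (0.674 at its first start) and 0.478 for the αTN4-only Col6a3 (0.271 at its first start). The difference between the lens-only and αTN4-only members therefore depends on the start used.

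**Figure D2:**
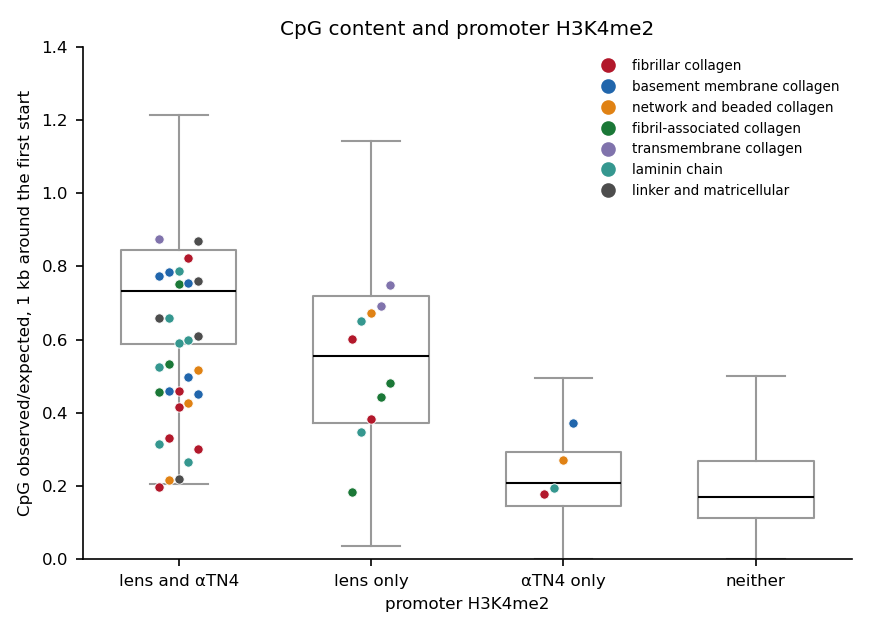
CpG observed over expected in the 1 kb around the first start (y axis) by promoter H3K4me2 class (x axis). Boxes give the median and quartiles of all protein-coding genes, whiskers the range without outliers, and points are the 45 genes, coloured by role: the 4 αTN4-only genes lie between 0.179 and 0.373.

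H3K4me2 also differed in how much of each window it covered. In lens the median member had 4.19% of its window under H3K4me2 peaks (all genes 4.30%), whereas in control αTN4 cells it had 9.03% (all genes 4.90%). The control coverage was larger than the lens coverage at 31 of 45 members (68.9%; all genes 50.4%). Fibrillar collagens had a median of 1.78% in lens and 9.95% in control cells. Network and beaded collagens had 1.74% and 8.94%, basement membrane collagens 4.37% and 10.7%, and linker and matricellular genes 7.70% and 14.8%. Transmembrane collagens went the other way, with 3.51% in lens and 0.14% in control cells.

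The highest lens coverage was at Col11a2 (16.9%), Col2a1 (16.8%), Agrn (16.5%), Lamb2 (16.4%) and Col4a1 (14.9%). The windows of Col11a2, Agrn and Lamb2 hold the starts of 4, 3 and 3 other genes, and the 3 strongest lens peaks of the Col11a2 window lay at starts of neighbours. The Col2a1 window had 7 lens peaks over 11.6 kb and 4.22% control coverage. Col4a1 and Col4a2 encode the ubiquitous chains of type IV collagen and are transcribed in opposite directions from starts that overlap head to head, with 20 bases between them. A single lens peak of 9868 bp covered both starts (fold 25.8, percentile 90.9). Control cells had 2 peaks there: one of 4031 bp (fold 20.3, percentile 92.8) covered both starts, and one of 4130 bp (fold 21.7, percentile 95.1) lay within Col4a1 and covered neither.

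The highest control coverage was at Col1a1 (33.2%), Lama5 (27.1%), Col4a2 (19.1%), Lamb2 (18.1%) and Col1a2 (16.8%). Col1a1 and Col1a2 encode the chains of type I collagen. At Col1a1 11 control peaks covered 18.9 kb, including a promoter peak of 7742 bp (fold 25.1), against 5 lens peaks over 3.79 kb with a promoter peak of 1758 bp (fold 14.1). At Lama5, an α chain of basement membrane laminins, the promoter peak of control cells reached 12069 bp and the lens peak 2403 bp. Values from these libraries depend on the depth of each, which is unknown, so widths and folds are set side by side without a test.

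**Figure D3:**
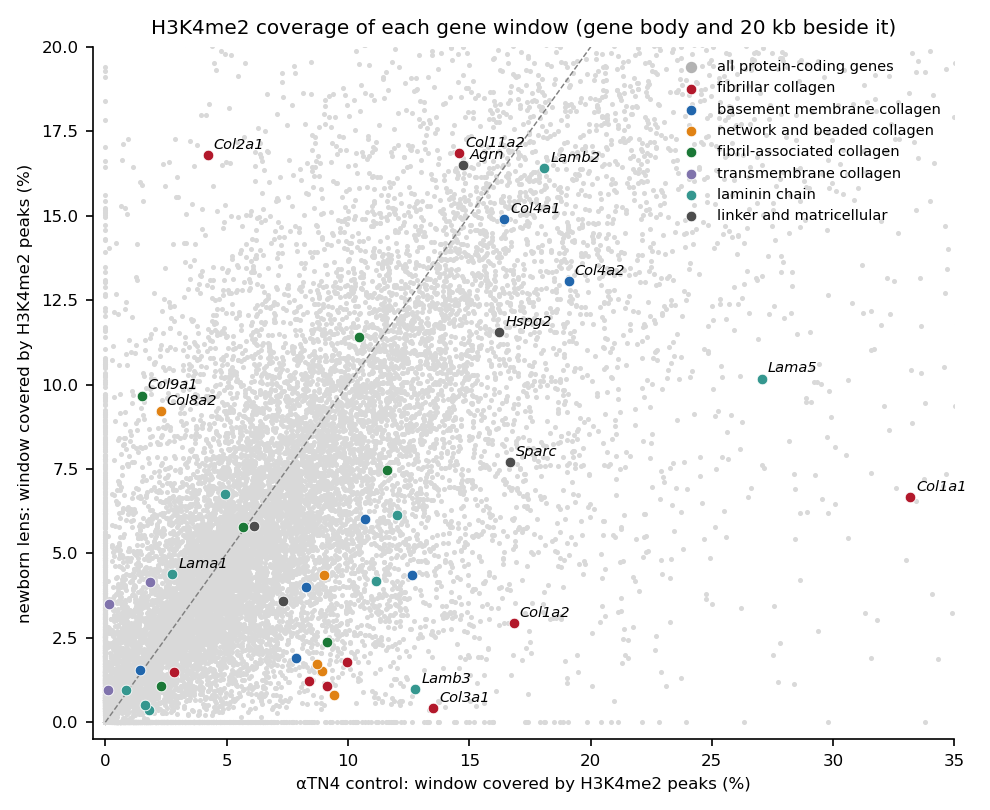
Percent of each gene window covered by H3K4me2 peaks in control αTN4 cells (x axis) and in newborn lens (y axis). Coloured points are the 45 genes and grey points all protein-coding genes (1125 lie beyond the axes); the dashed line marks equal coverage. Col2a1, Col9a1 and Col8a2 lie toward the lens axis, and Col1a1, Col1a2, Col3a1 and Lamb3 toward the αTN4 axis.

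Considered peak by peak, 256 lens H3K4me2 peaks lay in the 45 windows. A control H3K4me2 peak met 126 of them (49.2%, interval 43.2 to 55.3%; all lens peaks 45.4%), an H3K4me1 island 120 (46.9%, 40.9 to 53.0%; all lens peaks 31.7%), an H3K4me3 peak 47 (18.4%, 14.1 to 23.6%; all lens peaks 23.7%) and a Pol2 peak 62 (24.2%, 19.4 to 29.8%; all lens peaks 25.7%). When at least 50% of the lens peak had to be covered, the shares were 10.2% for H3K4me3 and 11.3% for Pol2. Conversely, 118 of 340 control H3K4me2 peaks met a lens peak (34.7%, 29.8 to 39.9%; all control peaks 41.3%). These intervals treat peaks as independent, although neighbouring peaks can meet the same island, so they are too narrow. Lens peaks that met H3K4me1 were concentrated at Col4a1 (16 of 18), Hspg2 (17 of 21) and Col4a2 (12 of 13, in a window overlapping that of Col4a1). At Col9a1 0 of 15 and at Col23a1 1 of 18 did.

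The overlap varied with the role of the gene. Of 31 lens peaks at transmembrane collagens, 2 met a control H3K4me2 peak (6.45%, 1.8 to 20.7%), whereas 32 of 40 at linker and matricellular genes did (80.0%, 65.2 to 89.5%). Hspg2, which encodes perlecan, contributed 21 lens peaks, of which 17 met a control peak. Col23a1, a transmembrane collagen, had 18, of which 2 did. All 7 lens peaks of Lama5, 5 of 5 of Sparc and 5 of 5 of Lamb2 met a control peak, in contrast to 0 of 15 of Col9a1, 0 of 7 of Col13a1 and 0 of 6 of Col25a1.

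The overlap also differed with position. Of the 256 lens peaks, 56 lay at a member's promoter, 32 at the promoter of another protein-coding gene and 168 elsewhere. The shares met by a control H3K4me2 peak were 64.3% (interval 51.2 to 75.5%), 84.4% (68.2 to 93.1%) and 37.5% (30.5 to 45.0%). For all lens peaks the share was 75.2% at any promoter and 27.7% away from promoters. Of the 168 peaks elsewhere, 1 met a control H3K4me3 peak and 81 met an H3K4me1 island (48.2%).

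H3K4me3 and Pol2 marked the starts that were occupied in control cells. Both were present at 22 of 45 promoters (48.9%; all genes 46.3%). Lama1, Lama3 and Nid1 had H3K4me3 without Pol2 (6.67%; all genes 2.74%), and Col1a2, Col18a1 and Lamb3 had Pol2 without H3K4me3 (6.67%; all genes 1.62%). The Col18a1 Pol2 peak was weak (fold 5.21, percentile 22.0) and lay near an internal start, 76.9 kb from the first. The summit of the Col1a2 Pol2 peak lay 1.54 kb from the first start. Another 7 promoters had H3K4me2 and neither H3K4me3 nor Pol2 (15.6%; all genes 7.76%), namely Col3a1, Col6a3, Col11a1, Col14a1, Col15a1, Col16a1 and Col23a1. The strongest H3K4me3 was at Lama5 (fold 50.2, percentile 99.4), Col5a1 (fold 40.2, percentile 95.4) and the shared promoter of Col4a1 and Col4a2 (fold 34.7, percentile 90.1). The strongest promoter Pol2 was at Sparc (fold 39.4, percentile 98.6), which encodes a matricellular protein that binds collagen. At Col1a1, by contrast, H3K4me3 was weak (fold 6.10, percentile 10.4), with Pol2 of fold 13.8 at the promoter and 7 Pol2 peaks over the window.

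Among laminin chains, those of the main capsule laminins were marked in lens and in control cells. Lamc1, the common γ chain, had the strongest lens promoter peak of all members (fold 37.7, percentile 99.9) and a control H3K4me2 peak of fold 26.4 (percentile 99.2). Lama1, the α chain of embryonic and lens capsule laminin, had a lens promoter peak of 3478 bp (fold 19.4) and control H3K4me2 of 2254 bp (fold 25.0, percentile 98.6), with weak H3K4me3 (fold 7.55, percentile 17.7) and no Pol2. Lamb1, its β chain, had a lens peak of 4584 bp (fold 14.9) and control H3K4me2 of fold 7.36. By amount covered with H3K4me3 the first 5 windows were those of Col11a2 (5.05 kb), Lamb2 (4.41 kb), Lama5 (4.22 kb), Col4a3 (3.54 kb) and Col9a3 (3.27 kb), and much of this lay at promoters of neighbouring genes. The gene's own promoter peaks made up 0 kb at Col11a2 and Col9a3, 0.83 kb at Lamb2, 2.68 kb at Lama5 and 1.93 kb at Col4a3.

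After Pax6 KD the promoter H3K4me2 calls were the same at all 45 genes. None of the 35 marked promoters lacked the call in Pax6 KD cells. Among all genes 347 of 13008 marked promoters lacked it (1.55% of all genes). Of 340 control H3K4me2 peaks in the windows, 276 met a Pax6 KD peak (81.2%, 76.7 to 85.0%; all control peaks 82.5%). The covered length was lower in KD at 39 members and higher at 6, and over all genes it was lower at 67.3% and higher at 11.5%. Thus the H3K4me2 difference at the matrix genes ran with that of the whole lists, which covered 74.3 Mb in control and 63.6 Mb in KD cells.

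For H3K4me3, 47 of 53 control peaks met a Pax6 KD peak (88.7%, 77.4 to 94.7%; all control peaks 89.9%). The laminin windows held 16 of these peaks, of which 11 met a KD peak (68.8%, 44.4 to 85.8%). Not all of the unmet peaks lay at laminin promoters. They included a peak at a neighbour's promoter in the Lamb2 window (fold 5.63, percentile 6.53) and another away from promoters in the Lamc1 window (fold 4.64, percentile 2.24). Promoter H3K4me3 was called in control and not in KD cells at 2 genes, Lama1 and Lamb1 (4.44%; all genes 1.56%). Both were weak in control cells: the Lama1 peak had 537 bp and the 2 Lamb1 peaks had folds of 6.79 and 5.28 (percentiles 13.9 and 5.09 of the list). H3K4me2 stayed at both promoters, with KD folds of 26.7 for Lama1 and 9.37 for Lamb1.

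H3K4me1 differed most between control and Pax6 KD cells, in the members as in the whole list, which held 38007 islands in control and 18417 in KD cells. Promoter H3K4me1 was present in control and not in KD cells at 10 genes (22.2%; all genes 20.3%): Col5a2, Col5a3, Col11a2, Col15a1, Col18a1, Col6a2, Col8a1, Col16a1, Lama1 and Lamb2. Among promoters with H3K4me1 in control cells, that was 10 of 26 members and 4550 of 8046 of all genes. These counts depend on the promoter width: with 1 kb to either side, 21 members had promoter H3K4me1 in control and 10 in KD cells. With so few promoters, no difference between the members and all genes is drawn from these shares. H3K4me1 was present in KD and not in control cells at Nid2 alone, which encodes a nidogen (all genes 1.1%). Of 223 control islands in the windows, 122 met a KD island (54.7%, 48.2 to 61.1%; all islands 46.2%).

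Several of these control islands were strong within their list. The Col5a3 promoter island had a fold of 6.55 over the control library (percentile 95.1), that of Col16a1 5.88 (percentile 91.7), that of Col15a1 5.48 (percentile 88.6) and that of Col18a1 5.25 (percentile 86.3). Those of Col6a2 (fold 2.72) and Col5a2 (fold 3.07) were weaker. The Nid2 island of KD cells had a fold of 2.47 and spanned 4200 bp. Col5a3 and Col5a2 are chains of the type V collagen that regulates fibril width, Col15a1 and Col18a1 carry the endostatin domains, and Col16a1 is a fibril-associated collagen.

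The amount of each window under H3K4me1 was lower in KD at 36 members, higher at 5 and equal at 1, and 3 had no island in either (Col11a1, Col25a1 and Lama4). For all genes it was lower at 54.9% and higher at 8.31%, and 63.3% had an island in control cells. The largest differences were at Col8a1 (22.4 kb in control and 0 kb in KD), Sparc (26.4 and 10.0 kb), Col6a3 (41.0 and 25.4 kb), Col18a1 (37.1 and 22.0 kb) and Col4a1 (82.6 and 67.6 kb). Col8a1, a network collagen, was 1 of 8 members whose window had islands in control and none in KD (17.8%; all genes 22.6%), the others being Col5a3, Col8a2, Col9a1, Col13a1, Lama1, Lamb1 and Lamb2. In the other direction Col14a1, a fibril-associated collagen, had 14.6 kb in control and 22.0 kb in KD. The remaining 4 were higher by at most 0.40 kb (Lama5, Col2a1, Col1a2 and Lama3).

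**Figure D4:**
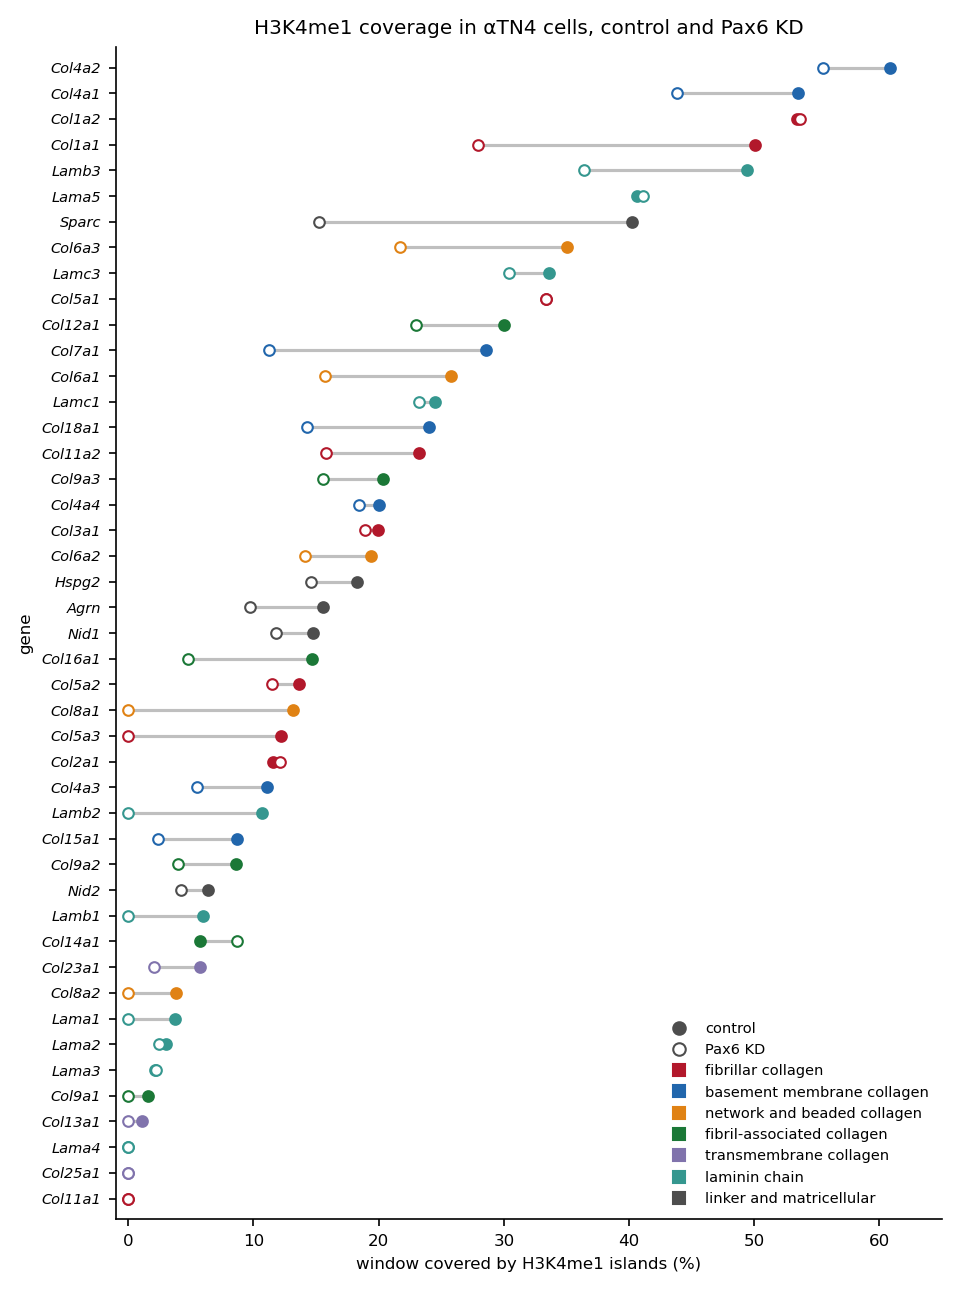
Percent of each gene window covered by H3K4me1 islands (x axis) in control (filled) and Pax6 KD (open) αTN4 cells for the 45 genes (y axis, ordered by the control value, coloured by role). At 36 genes the open point lies left of the filled one, and at 8 of them it lies at 0.

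The islands covered more of the matrix windows than of the typical gene. The median member had 14.8% of its window under H3K4me1 in control cells (all genes 5.05%) and 11.5% in KD (all genes 0). Coverage in control cells was highest at Col4a2 (60.9%), Col4a1 (53.5%), Col1a2 (53.4%), Col1a1 (50.1%) and Lamb3 (49.4%), and in KD cells these windows had 55.5%, 43.8%, 53.7%, 27.9% and 36.4%. The Col1a2 window had 7 islands in control cells and 1 island of 41.2 kb in KD cells. Where a control island met KD islands, ChIP reads per kb were lower in KD by a median of 0.31 on the log2 scale over all islands. Relative to that, the median difference (KD minus control) over 122 islands of the matrix windows was -0.06 on the log2 scale, and it was -0.21 over the 27 of laminin chains.

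**Figure D5:**
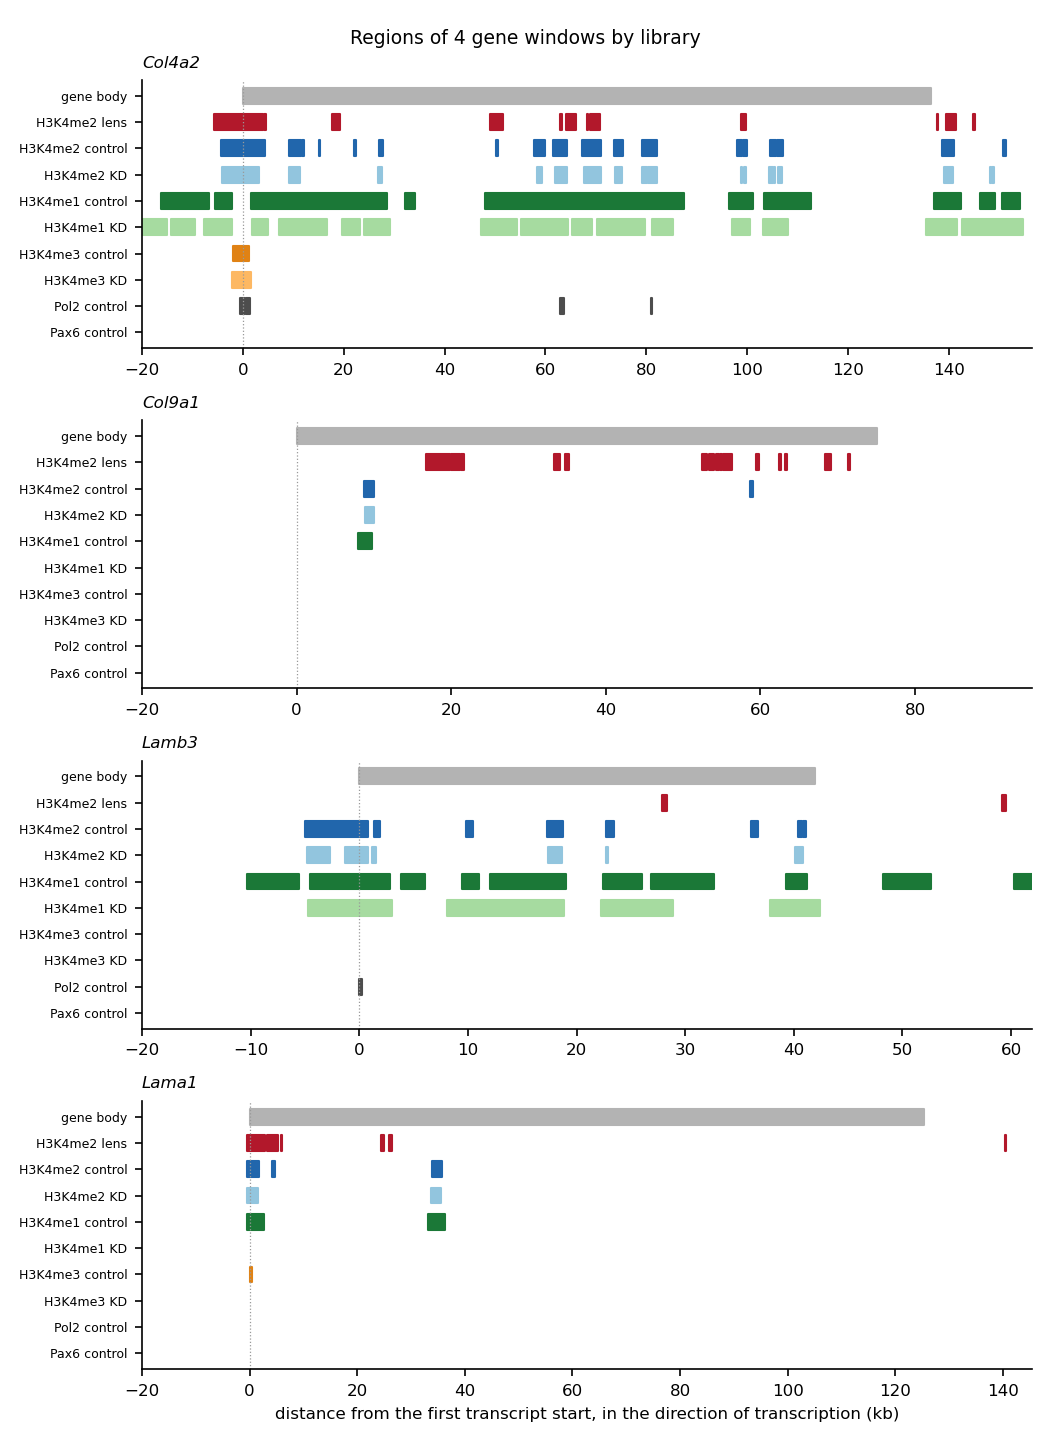
Regions of each library (rows) in the windows of Col4a2, Col9a1, Lamb3 and Lama1, by distance from the first transcript start in the direction of transcription (x axis, kb; grey bar: gene body). The lens H3K4me2 of Col9a1 begins 16.8 kb inside the gene, Lamb3 has no lens peak at its start, and the H3K4me1 islands and the H3K4me3 peak of Lama1 are absent from the KD rows.

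Pax6 itself was found in the windows of 5 of 45 members, of 2.09% of all genes, and at 1 promoter, that of Col6a3 (all genes 0.255%). Window length was not matched in this comparison, and a longer window can hold a peak more readily. The Lama2 window, which holds 1 of the sites, spanned 676 kb. All 504 Pax6 peaks of control cells were considered. None of the 5 sites met a lens H3K4me2 peak or a control H3K4me3 or Pol2 peak. The shares of all 504 Pax6 peaks that did so were not measured, so this cannot be called particular to these sites. In the whole lens list, 194 peaks met any Pax6 peak. No lens peak of the matrix windows met a Pax6 peak: 0 of 256, which allows a share of up to 1.17% when 3 peaks are taken as the limit for a count of 0 (Wilson upper bound 1.48%; all lens peaks 0.345%).

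The sequences around the Pax6 summits are shown for the 4 sites outside exons, as 101 bases centred on the summit, on the + strand of mm9. Capitals mark a match to one of the words searched on both strands, which were TTCACGC (a Pax6 paired domain core), GCNTGANTG (the end of the paired domain site), TGANTCA (AP-1) and CCGGAA (Ets).
Lama2 (chr10:27133979-27134079, + strand): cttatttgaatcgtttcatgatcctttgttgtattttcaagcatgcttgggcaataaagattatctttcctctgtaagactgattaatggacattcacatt
Col6a2 (chr10:76063311-76063411, + strand): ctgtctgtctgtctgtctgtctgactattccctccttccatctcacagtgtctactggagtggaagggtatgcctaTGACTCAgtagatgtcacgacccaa
Col8a1 (chr16:57682405-57682505, + strand): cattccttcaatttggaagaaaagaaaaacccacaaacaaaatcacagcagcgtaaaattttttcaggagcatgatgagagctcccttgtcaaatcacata
Lamc3 (chr2:31816642-31816742, + strand): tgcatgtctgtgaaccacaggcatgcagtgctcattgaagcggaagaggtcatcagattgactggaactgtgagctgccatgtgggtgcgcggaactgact
Among all 504 summit windows of this length, 3.37% held TTCACGC, 10.7% GCNTGANTG, 12.3% TGANTCA and 4.56% CCGGAA. The Col6a2 window held TGANTCA, and the other 3 held none of the words.

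The strongest of these sites was in an intron of Lama2, the α chain of muscle laminin, 203 kb downstream of its first start (chr10:27133893-27134215, fold 15.1, percentile 97.6 of Pax6 peaks). It lay in an H3K4me2 peak in control and KD cells, with folds of 8.62 and 5.56, and in an H3K4me1 island of 6000 bp in control cells that had no KD counterpart. The Col6a2 site (chr10:76063272-76063437, fold 10.4) was intronic, with H3K4me1 and H3K4me2 in both, the H3K4me1 island having 187 ChIP reads in control and 199 in KD cells over 5800 and 8800 bp. The intronic site of Col8a1 (chr16:57682395-57682543, fold 7.04) met an H3K4me2 peak of 725 bp in control cells that was not called in KD cells, and no H3K4me1 island.

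The site in the Lamc3 window (chr2:31816543-31816778, fold 9.05) lay 14.6 kb beyond the gene's end, within Aif1l, and had H3K4me1 and H3K4me2 in control and KD cells. At Col6a3 the peak (chr1:92675748-92675966, fold 9.88) overlapped an exon, 64.6 kb downstream of the first start and 14 bp from an annotated internal start, with H3K4me1 in both and no H3K4me2. H3K4me1 over the 4 sites with an island had 15.6 (Col6a3), 19.8 (Lama2), 32.2 (Col6a2) and 34.1 (Lamc3) ChIP reads per kb in control cells. In KD cells Col6a3 had 14.6, Col6a2 22.6 and Lamc3 19.5. These reads per kb were not scaled for depth, and over all kept islands the median change (KD minus control) was -0.315 on the log2 scale.

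Genes that act on the same matrix proteins were compared through lists. For all protein-coding genes the share with promoter H3K4me2 was 66.8% in lens and 58.2% in control cells. All 26 genes of collagen folding, crosslinking and processing had promoter H3K4me2 in lens and 23 in control cells (88.5%), the exceptions being Lox, Leprel1 and Adamts3. Matrix receptors had 15 and 14 of 16 (93.8% and 87.5%): the integrin chain Itgb1 and the dystroglycan gene Dag1 were marked in both, and Itgb4, of hemidesmosomes, in lens only. Of 14 further collagen and laminin genes, 9 were marked in lens (64.3%) and 4 in control cells (28.6%), including Col4a5 and Col4a6, the other type IV collagen chains of basement membranes.

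Markers of the cells that the samples could hold were read in the same way. All 15 lens epithelium and fibre markers had promoter H3K4me2 in lens (all genes 66.8%). In control cells 7 of 15 did (46.7%; all genes 58.2%), among those without it Foxe3, Cdh1, Mip and Bfsp2. Pax6 and Cryaa had it in both. The summed level of such markers was not measured, since the lists hold regions and not RNA. Of the vascular endothelium markers, 6 of 8 had it in lens (75.0%; all genes 66.8%), including Cdh5 and Kdr but neither Pecam1 nor Tie1. In control cells 2 of 8 had it (25.0%; all genes 58.2%), namely Tek and Pecam1, so Pecam1 was marked in control cells and not in lens. All 8 mesenchyme and fibroblast markers had it in both. The part of vessel, mesenchyme or other cells in the lens regions at the matrix genes was not tested.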

How the data were processed

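Lists of ChIP-seq regions were analysed, 1 library per condition. Reads had been mapped to mm9 with Bowtie by the authors, who used MACS2 for H3K4me2, H3K4me3, Pol2 and Pax6 peaks and SICER for H3K4me1 islands. In the MACS2 lists the authors deposited, for each peak, a fold ratio over background and the −log10 of its p-value and q-value. In the SICER lists they deposited read counts per island of the ChIP and of a control library, a fold ratio, a p-value and an FDR. That control library is not named. Peak names of the control H3K4me2 list hint at pooled replicates, and it was treated as 1 library. Pax6 and Pol2 libraries were assigned by their titles, since another label field gave the antibodies the other way round. RNA-seq and the level of Pax6 after knockdown were not analysed here.

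Genes came from GENCODE vM1 (46015 starts of protein-coding transcripts on chromosomes 1 to 19, X and Y) and sequences from the mm9 genome, both on the build of the regions. Overlap meant at least 1 bp. Percentiles are by fold within 1 list. Shares have 95% Wilson intervals. For a share of 0, a limit of 3 counts is given beside the Wilson bound. Island density was ChIP reads per kb, KD over control on the log2 scale, with the median over kept islands of all genes and intergenic regions subtracted. The depth of the libraries is unknown. SICER islands held 3289553 ChIP reads in control and 1849269 in KD cells, which counts only reads within islands. Windows overlapped for Col4a1 and Col4a2, Col4a3 and Col4a4, and Col3a1 and Col5a2, and regions were counted once. Python 3.11.15 with pandas 2.3.3 and pysam 0.24.0 was used, and the code was tested on simulated data.

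Members, roles and lists were chosen with earlier results of these data known. All members were counted by role. Values were printed for members whose promoter H3K4me2 was in lens or control αTN4 cells and not in the other, whose promoter call differed between control and KD, with a Pax6 peak in the window, among the 5 highest by coverage with lens H3K4me2, control H3K4me2 or H3K4me1, or H3K4me3 in kb, with no region at the promoter (0 members), or among the 5 largest differences of H3K4me1 coverage in either direction. Other members named as examples were chosen after their values were seen. Alternatives were other window and promoter sizes, the 5′-most start only, stricter thresholds, an overlap of at least 50%, and islands paired 1 to 1.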

Additional observations from a re-analysis of the deposited data

How the results depend on the processing

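Across 103 recomputed values of 26 results, 94 stayed close to the main value. The limits were 1.5 times a main count or median, the Wilson interval of a main share, and 0.1 log2 of a main change. A change of direction was looked for only in the median change of H3K4me1 read density, whose sign stayed the same. The window coverages counted under the overlap setting do not depend on it, so they could not differ. With a promoter of 1 kb, 10 members had promoter H3K4me1 in KD cells, and with one of 5 kb, 2 genes had promoter H3K4me2 in αTN4 only. Over gene bodies alone, 13.6% of lens peaks met H3K4me3 and 17.9% met Pol2. When at least 50% of a region had to be covered, lens peaks met H3K4me1 at 39.8%, H3K4me3 at 10.2% and Pol2 at 11.3%, control H3K4me2 peaks met lens peaks at 23.8%, and 69.7% of control H3K4me2 peaks met a KD peak. The cause of these differences was not tested. No paired analysis was possible because each condition has 1 library and no result comes from a test. With 1 library a condition, no difference can be set against replicate error, and a region not called can be present below the threshold. The unknown depth of all libraries, those of H3K4me1 included, limits every comparison of counts, widths and reads between lists.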
